A study of Mus musculus with 2 samples.

Results

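The genes described here are 8 members of the MHC class I system in mouse bone marrow: B2m, the classical heavy chains H2-K1 and H2-D1, the Qa-1 gene H2-T23, and 4 genes of the Qa region, H2-Q4, H2-Q6, H2-Q7 and H2-Q10. They are 8 of the 13211 genes listed in at least 1 of the 2 count tables, and all 8 are listed in both. They were chosen by name, with their ratios between the libraries already known, H2-Q10 ranking 9th of the 9725 genes with enough UMIs. Those ratios are therefore given as a description, and no support is drawn from them.

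The study profiled live-sorted, otherwise unfractionated marrow flushed from femur and tibia of mice aged 2 months, with 1 single-cell library per genotype and 2 mice pooled in each. The Col1a1fspKO library came from Fsp1-Cre;Col1a1flox/flox mice, in which the Fsp1 (S100a4) promoter drives Cre against a loxP-flanked Col1a1. The WT library came from Cre-negative littermates that carried the same floxed Col1a1 alleles. Both libraries were made with a 3′ kit that tags each captured RNA molecule with a unique molecular identifier (UMI). Levels are UMIs per 1000000 UMIs of the same cells (CPM). They count molecules by their 3′ end, so gene length does not enter, but capture can differ between genes, and levels are compared here within a gene.

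With 1 library per genotype there is no spread between mice, no test was possible, and no p-value is given. Every interval in parentheses is a 95% interval for counting error only: exact Poisson for a level, exact binomial for a ratio of CPM, and Clopper-Pearson for a share of cells. The Col1a1fspKO library holds 1309 cells and 8647722 UMIs, and the WT library 1169 cells and 8624469 UMIs, with medians of 4954 and 5534 UMIs per cell. Col1a1 had 3 UMIs in Col1a1fspKO and 0 in WT, and since the deleted exons lie far from the 3′ end that was counted, this checks nothing. The cells fell into 16 clusters. These were formed without the H2 and Ly6 genes, B2m, the class I pathway, regulator and receptor lists given below, and a few others. Of the clusters, 15 were named after markers and made 8 classes, and 1 cluster of 227 cells, led by Fcnb, stayed unnamed. In it neutrophil markers stood at 353031 CPM in Col1a1fspKO and 385432 in WT. These are 71.9% and 77.9% of their level in Neutrophils-like cells, from which the cluster is kept apart below. The classes were named from rebuilt clusters, so they may differ from the study's own. Only 2 cell barcodes occurred in both libraries, and 4 cells per library were called as doublets and kept.

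Class I molecules carry peptides from inside the cell to its surface. Each is a heavy chain, encoded by an H2-K, H2-D, H2-Q, H2-T or H2-M gene in the mouse, held together with β2-microglobulin, the product of B2m. H2-K1 and H2-D1 present peptides to CD8 T cells. Qa-1, the product of H2-T23, is read by the inhibitory CD94-NKG2A receptor of natural killer cells. H2-Q6 and H2-Q7 encode Qa-2 molecules, H2-Q4 encodes Qb-1, and H2-Q10 encodes a secreted molecule best known from liver. Most nucleated cells make class I molecules, and interferons raise their transcription.

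Of the 8 genes, 7 lie on chromosome 17 in GRCm38, the build that mm10 names, and B2m is at chr2:122147686-122153083 on the forward strand. H2-K1 is at chr17:33996017-34000347 on the reverse strand. H2-D1 is at chr17:35262730-35267499 on the forward strand, and the Qa genes follow it in the same direction: H2-Q4 at chr17:35379617-35385290, H2-Q6 at chr17:35424850-35430055, H2-Q7 at chr17:35439155-35443773 and H2-Q10 at chr17:35470089-35474563. H2-T23 is at chr17:36029773-36032855 on the reverse strand.

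The promoters are shown because the genes of this set are known to share upstream elements, and these can be read beside the levels that follow. All 8 genes matched the RefSeq promoter table of GRCm38.p6, whose windows hold mostly the bases before each start and a short stretch after it. H2-K1 has 2 entries, and 1 is used. The stretches lie upstream of the RefSeq start and are written 5′ to 3′ on the gene's strand. Capitals mark matches on either strand to 4 kinds of element: an interferon-type element (GAANNGAAA or GAAANNGAA), an NF-kB-type element (GGGGATTCC), TGACG and CCAAT. For H2-D1 and H2-T23 only the interferon-type element and its flanks are shown, since a GENCODE M21 transcript has its untranslated first exon there.

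B2m, chr2:122147517-122147648, forward: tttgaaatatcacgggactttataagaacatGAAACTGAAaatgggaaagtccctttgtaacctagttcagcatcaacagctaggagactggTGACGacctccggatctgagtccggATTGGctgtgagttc
H2-K1, chr17:34000348-34000468, reverse: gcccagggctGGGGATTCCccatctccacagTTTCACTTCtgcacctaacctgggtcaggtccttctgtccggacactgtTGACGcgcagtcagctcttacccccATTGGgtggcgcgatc
H2-D1, chr17:35262934-35262962, forward: atctcctcagTTTCACTTCtgcacctaac
H2-T23, chr17:36032806-36032834, reverse: tcctactgctTTCTCTTTCataaagacac
H2-Q4, chr17:35379433-35379576, forward: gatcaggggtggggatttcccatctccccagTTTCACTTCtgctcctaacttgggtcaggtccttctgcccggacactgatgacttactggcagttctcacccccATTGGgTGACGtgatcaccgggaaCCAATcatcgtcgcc
H2-Q6, chr17:35424667-35424809, forward: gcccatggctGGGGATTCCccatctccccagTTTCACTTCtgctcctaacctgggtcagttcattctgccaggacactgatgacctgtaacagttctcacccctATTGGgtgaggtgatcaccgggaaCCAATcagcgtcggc
H2-Q7, chr17:35439011-35439153, forward: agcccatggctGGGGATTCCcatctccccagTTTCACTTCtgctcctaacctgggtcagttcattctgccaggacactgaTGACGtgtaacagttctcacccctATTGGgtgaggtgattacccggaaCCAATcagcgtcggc
H2-Q10, chr17:35469903-35470023, forward: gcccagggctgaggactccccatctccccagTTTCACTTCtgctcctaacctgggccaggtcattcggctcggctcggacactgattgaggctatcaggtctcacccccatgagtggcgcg

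An interferon-type element was found upstream of all 8 genes, against 14.8% of the 32851 promoters in the table. Shares of promoters count a match anywhere in the window, also after the start, so they are not strictly like the counts of genes. Because shared elements were already known for these genes, no support is drawn from these counts. In H2-K1, H2-D1 and the 4 Qa genes it read TTTCACTTC on the gene's strand, which is the element on the opposite strand. The NF-kB-type element was upstream of 4 genes, H2-K1, H2-D1, H2-Q6 and H2-Q7, and in 0.25% of all promoters. TGACG was upstream of 5 genes and in 20.8% of promoters, and CCAAT upstream of 7 and in 37.4%. H2-Q10 had the interferon-type element and no match to the other 3. No match shown overlaps another, and the 2 forms of the interferon-type element, which can overlap each other, were counted as 1 kind. A match is only a run of letters, and a missing match says only that these letters are not in the window.

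Over all cells, each of the 8 genes had a higher level in Col1a1fspKO than in WT. B2m was counted 17780 times in Col1a1fspKO and 11479 times in WT, which is 2056 and 1331 CPM and a ratio of 1.54 (1.51 to 1.58). H2-K1 stood at 367 and 220 CPM, a ratio of 1.67 (1.58 to 1.77). H2-D1 stood at 875 and 605 CPM, a ratio of 1.448 (1.397 to 1.4998). The interval of H2-K1 overlapped that of B2m and lay above that of H2-D1.

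Among the Qa genes, H2-Q6, H2-Q7 and H2-Q10 had ratios whose intervals lay above those of B2m, H2-K1 and H2-D1, and H2-Q4 did not. H2-Q4 was counted 398 times against 228 in WT, which gave a ratio of 1.74 (1.48 to 2.06). H2-Q6 had 142 and 47, a ratio of 3.01 (2.15 to 4.29). H2-Q7 had 463 and 165, a ratio of 2.80 (2.34 to 3.36). The interval of H2-Q4 did not overlap those of H2-Q6 and H2-Q7. H2-Q10 had 50 and 11 UMIs, a ratio of 4.53 (2.33 to 9.66). H2-T23, with 247 and 171 UMIs, had a ratio of 1.44 (1.18 to 1.76).

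A ratio above 1.5 was reached by 6 of the 8 genes, and none was below 1 over 1.5. B2m was at 1.48 as a mean of single cells and at 1.47 after thinning, so under these settings 5 of the 8 passed. Among the 9725 genes with at least 50 UMIs over both libraries, 3.0% were above 1.5 and 2.93% were lower by that factor. The median ratio of the 8 was 1.70, and that of all 9725 genes 0.973. Because the ratio over all cells took part in choosing the genes, these shares are only set beside each other.

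**Figure D1:**
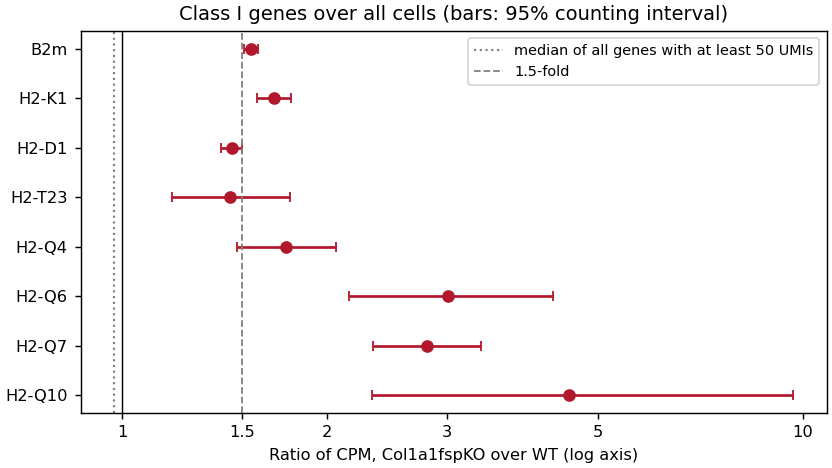
Ratio of CPM, Col1a1fspKO over WT, over all cells for each of the 8 genes, on a log axis with 95% counting intervals. H2-D1 and H2-T23 lie just below the dashed 1.5-fold line at 1.45 and 1.44, and H2-Q10 lies farthest right at 4.53 with the widest interval.

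The difference was also present in the share of cells in which a gene was seen. Shares depend on depth, so cells were also compared after thinning each to 2500 UMIs, a depth that all of them reached. After thinning, 96.5% of Col1a1fspKO cells and 90.3% of WT cells had a UMI of B2m, with 99.1% and 97.7% before. For H2-K1 the thinned shares were 48.2% and 34.3%, and for H2-D1 82.0% and 69.0%. For H2-Q7 they were 10.9% and 4.45%, and for H2-Q10 1.83% and 0.428%. Before thinning those of H2-Q7 were 19.3% and 8.81%. The share was higher in Col1a1fspKO for all 8 genes, thinned or not. No single cell carried the counts of the abundant genes: the cell with the most B2m held 0.602% of that gene's UMIs in Col1a1fspKO. For H2-Q6 in WT, 1 cell held 12.8% of the 47 UMIs, and for H2-Q10 in Col1a1fspKO 1 cell held 10.0% of the 50.

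The levels differed widely between cell classes. B2m was highest in T and NK cells-like cells, at 3692 CPM (3475 to 3919) in Col1a1fspKO and 2566 (2332 to 2818) in WT. In Col1a1fspKO it was followed by Mono/Macro-like cells at 2931 and Dendritic-like cells at 2866, whose intervals overlapped. In WT the same 2 classes followed, at 1988 and 2097 CPM, again with overlap. B cells-like cells came next at 2305 and 1727 CPM. Neutrophils-like cells stood at 1433 and 919. Erythrocytes-like cells were lowest in both libraries, at 1196 CPM (1128 to 1268) and 411 (370 to 454). In WT the T and NK cells-like and Dendritic-like intervals overlapped, so those neighbours could not be ordered. This order is one of classes, and single clusters can stand higher than their class. The Mono/Macro-like cluster led by Wfdc17 had 3832 and 2659 CPM of B2m, with intervals that overlapped those of T and NK cells-like cells. The small B cells-like cluster led by Vpreb1 had 5096 (4444 to 5818) and 2722 (2197 to 3334).

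The classical heavy chains had the same 2 ends. H2-K1 was highest in T and NK cells-like cells, at 1367 CPM in Col1a1fspKO and 986 in WT, ahead of B cells-like cells at 643 and 437 CPM. It was lowest in Erythrocytes-like cells, at 72.6 and 26.5 CPM, and next lowest in Neutrophils-like cells, at 157 and 57.6 CPM, which overlapped the unnamed cluster. H2-D1 stood at 1798 and 1312 CPM in T and NK cells-like cells and at 351 and 134 in Erythrocytes-like cells. In Neutrophils-like cells, however, H2-D1 was at 791 and 439 CPM, in the middle of the order. The ratio of H2-K1 UMIs to H2-D1 UMIs was 0.198 (0.173 to 0.226) in Neutrophils-like cells of Col1a1fspKO, and 0.760 (0.666 to 0.868) in T and NK cells-like and 0.803 (0.697 to 0.924) in Myeloid progenitors-like cells. In WT those 3 ratios were 0.131, 0.751 and 0.597.

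**Figure D2:**
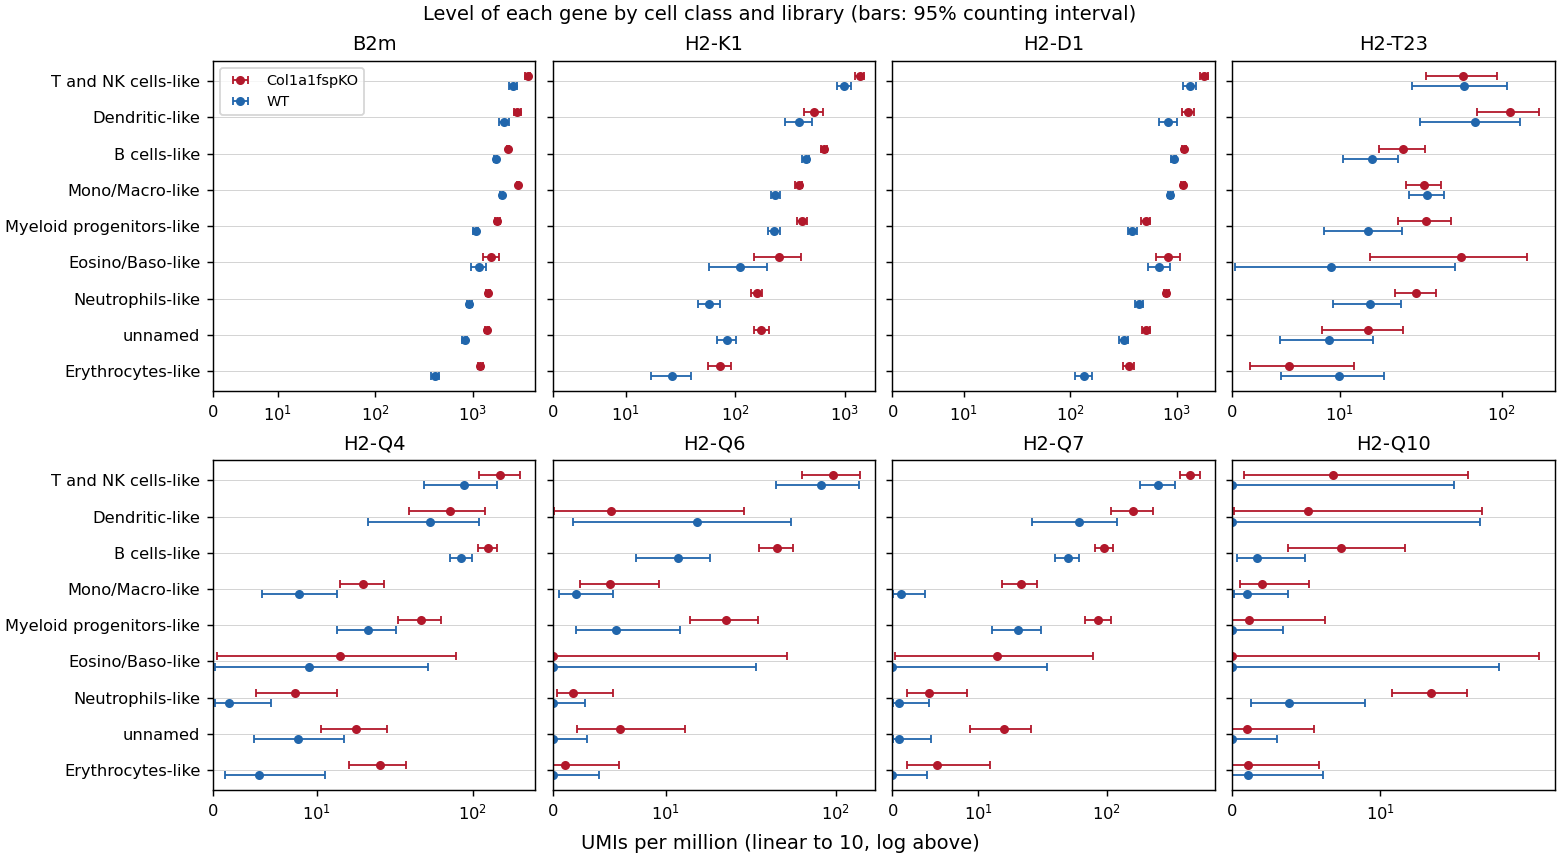
CPM of each of the 8 genes (panels) in the 8 named classes and the unnamed cluster (rows), with Col1a1fspKO in red, WT in blue and 95% counting intervals. The horizontal axis is linear to 10 and logarithmic above, and differs between panels. B2m, H2-K1 and H2-D1 run from lowest in Erythrocytes-like to highest in T and NK cells-like cells in both libraries. H2-Q10 has most of its UMIs in Neutrophils-like and B cells-like cells, with intervals that overlap those of other classes.

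H2-Q7 was concentrated in lymphocytes and in a few other classes. It stood at 441 CPM (368 to 524) in T and NK cells-like cells of Col1a1fspKO and 251 (182 to 338) in WT, ahead of Dendritic-like cells at 159 and 60.6 CPM and B cells-like cells at 95.7 and 49.6. Neutrophils-like cells had 4.23 and 0.768 CPM, which is 7 UMIs in 427 cells and 1 UMI in 309 cells. A UMI of H2-Q7 was seen in 81.0% of T and NK cells-like cells of Col1a1fspKO, with a median of 4326 UMIs per cell, and in 1.64% of its Neutrophils-like cells, with a median of 3621. The share in T and NK cells-like cells was therefore far above that in a class with little of the gene.

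H2-Q4 was highest in T and NK cells-like cells, at 150 CPM in Col1a1fspKO and 87.5 in WT, and in B cells-like cells, at 125 and 84.6, and these 2 classes overlapped in both libraries. H2-Q6 stood at 95.7 and 81.7 CPM in T and NK cells-like cells and at 44.8 and 11.8 in B cells-like cells, and Dendritic-like cells had only 1 and 2 UMIs of it. H2-T23 had its highest level in Dendritic-like cells instead, at 113 CPM (70.8 to 171) and 68.1 (31.2 to 129), which overlapped T and NK cells-like cells at 58.1 and 58.3. Erythroid markers were at 32194 CPM in Dendritic-like cells of Col1a1fspKO and at 8018 in WT, and their part in the levels of this class was not tested. Most of its neighbouring classes could not be ordered, and it was at 5.26 and 9.93 CPM in Erythrocytes-like cells.

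H2-Q10 had a different place. Neutrophils-like cells held 28 of its 50 UMIs in Col1a1fspKO and 5 of its 11 in WT, and B cells-like cells 12 and 3. Within Neutrophils-like cells, 24 of the 28 and 4 of the 5 were in the cluster led by Gm5483. In it Retnlg, a gene of mature neutrophils, came next. In that cluster a UMI of H2-Q10 was seen in 12 of 114 Col1a1fspKO cells, a share of 10.5% (5.56 to 17.7). In WT it was seen in 4 of 44, a share of 9.09% (2.53 to 21.7). In the other Neutrophils-like clusters the shares were 1.28% and 0.377%. Among Neutrophils-like cells those with the gene were therefore mostly of 1 cluster, with 12 of 16 in Col1a1fspKO and 4 of 5 in WT. Over all classes, 23 of the 35 Col1a1fspKO cells and 7 of the 11 WT cells with a UMI lay outside that cluster. The cluster made up 114 of the 427 Neutrophils-like cells of Col1a1fspKO, against 44 of the 309 of WT. Outside it, the ratio of H2-Q10 over all cells was 3.80 (1.61 to 10.4), from 26 and 7 UMIs, against 4.53 with it. Inside it, the ratio was 2.52 (0.865 to 9.99).

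The ratio between the libraries was then taken within each class. The counts of the classes make up those over all cells, which took part in choosing the genes. Shares of genes given here and for single classes below are therefore only set beside each other, and no support is drawn from them. B2m was higher in Col1a1fspKO in 9 of 9 classes, the unnamed cluster counted as one, with ratios from 1.33 to 2.91 and all 9 intervals above 1. H2-K1 was higher in 9 of 9, from 1.37 to 2.74, and H2-D1 in 9 of 9, from 1.21 to 2.63, each with 8 intervals above 1. Of the 1753 genes with at least 10 UMIs in every class, 0.685% were higher in all 9, which is 12 genes. The others included Clta, Ifitm3, Psmb9, Rab8a, Rpl13a and Rpl29. Of the 782 genes with at least 10 UMIs in every cluster, only 3, or 0.384%, were higher in all 16: B2m, H2-K1 and H2-D1. Their intervals were above 1 in 16, 14 and 13 clusters, with lowest ratios of 1.28, 1.03 and 1.10. In 49 pairs of one of the 8 genes and a named class with at least 10 UMIs, 46 were higher in Col1a1fspKO, against 48.7% of such pairs over all genes. The 3 pairs that were not higher were all of H2-T23. By cluster, with at least 10 UMIs, H2-Q4 was higher in 11 of 12 and H2-Q6 in 4 of 5. H2-Q7 was higher in 9 of 10 and H2-T23 in 9 of 14. In the B cells-like cluster led by 4930597A21Rik, H2-Q4 was at 0.688 (0.326 to 1.43) and H2-Q6 at 0.623 (0.156 to 2.28). In that led by Vpreb1, H2-Q7 was at 0.795 (0.183 to 3.46), and all 3 of these intervals include 1.

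For B2m and H2-D1 the ratio was highest in Erythrocytes-like cells, which number 85 and 78. There, B2m was at 1196 and 411 CPM, a ratio of 2.91 (2.59 to 3.28), H2-D1 at a ratio of 2.63 (2.13 to 3.27) and H2-K1 at 2.74 (1.70 to 4.56). The B2m interval did not overlap that of any other class. All 3 of the genes with at least 50 UMIs in this class were above 1.5-fold, against 3.92% of the 2733 genes tested there. After thinning, 87.1% of Col1a1fspKO and 56.4% of WT cells had a UMI of B2m. The H2-K1 value was unsteady, at 1.51 with single cells assigned by marker score, 1.69 with clusters at a resolution of 0.4 or 1.2, and 11.01 after thinning. The last rests on few counts, since only 10 of 85 Col1a1fspKO and 1 of 78 WT cells then had a UMI of H2-K1. H2-D1 was at 4.92 after thinning.

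Neutrophil RNA was also more abundant in these cells in Col1a1fspKO, with the 13 neutrophil markers at 11972 CPM against 4738 in WT. These are 2.44% and 0.958% of their level in Neutrophils-like cells of the same library. Their part in the ratios of this class was not tested. The erythroid markers themselves stood at 265986 and 233949 CPM.

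**Figure D3:**
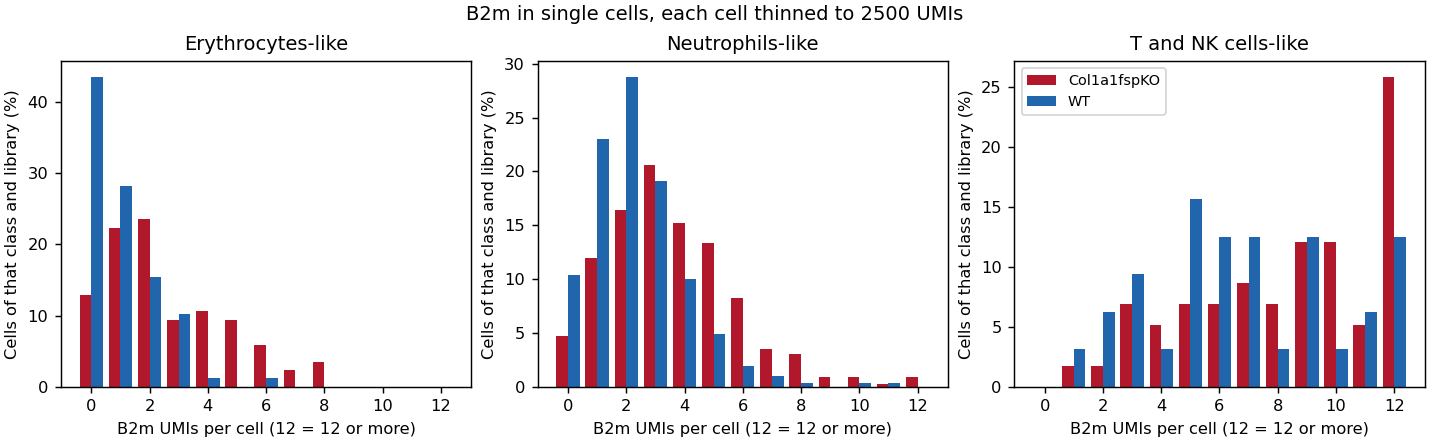
Percentage of cells by their number of B2m UMIs after each cell was thinned to 2500 UMIs, in 3 classes, with Col1a1fspKO in red and WT in blue. In Erythrocytes-like cells 56.4% of WT cells have a UMI against 87.1% of Col1a1fspKO cells, and in the other 2 classes the Col1a1fspKO bars lie further right.

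In Neutrophils-like cells 4 of the genes had at least 50 UMIs and all 4 were above 1.5-fold, against 5.05% of genes tested. B2m had a ratio of 1.56 (1.45 to 1.67), H2-K1 of 2.72 (2.09 to 3.56), H2-D1 of 1.80 (1.63 to 1.99) and H2-T23 of 1.93 (1.13 to 3.43). The 3 Neutrophils-like clusters were present in different proportions, as given above for the Gm5483-led cluster. Within the single clusters B2m had ratios of 1.38 in the cluster led by Orm1, 1.65 in that led by Mmp8 and 1.81 in that led by Gm5483, and H2-K1 2.91, 2.51 and 1.82. H2-D1 had 1.73, 1.45 and 1.44 in the same order, all below its ratio of 1.80 over the class, and the part of the cluster proportions in that value was not tested. H2-T23 had 1.26, 1.55 and 3.99, each from at most 26 UMIs and with an interval that includes 1.

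In Mono/Macro-like cells B2m had a ratio of 1.47 (1.41 to 1.54), H2-K1 of 1.64 (1.45 to 1.84) and H2-D1 of 1.32 (1.23 to 1.40). Of 5 genes with at least 50 UMIs, 2 were above 1.5-fold, H2-K1 and H2-Q4 at 2.39 (1.31 to 4.58), against 3.5% of genes tested. H2-K1 was at 1.48 after thinning, below 1.5-fold. H2-Q7, which had too few UMIs for that count, was seen 42 times in 267 Col1a1fspKO cells and 2 times in 275 WT cells, a ratio of 20.6 (5.36 to 176), which was 10.7 with single cells assigned by marker score. In the same cells H2-Q4 was seen 39 and 16 times, so H2-Q7 was 1.08 times as frequent as H2-Q4 in Col1a1fspKO (0.680 to 1.71) and 0.125 times in WT (0.0139 to 0.532). T and NK cell markers were also higher in these cells, at 94.7 CPM against 23.9, and their part in the H2-Q7 value was not tested. In the unnamed cluster H2-Q7 had 16 UMIs against 1.

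In Myeloid progenitors-like cells, which are led by Mt2, Cd34 and Mpo, 4 of 5 genes were above 1.5-fold, against 4.3% of genes tested. H2-Q7 stood at 85.8 and 20.4 CPM there, a ratio of 4.21 (2.59 to 7.10), and H2-K1 at 409 and 226, a ratio of 1.81 (1.53 to 2.13). H2-Q6 had 20 and 6 UMIs, a ratio of 4.06 (1.57 to 12.3), which was 2.03 after thinning and 7.57 with single cells assigned by marker score. B2m had a ratio of 1.67 and was just below 1.5-fold with 15 principal components. H2-T23 had 30 and 16 UMIs and a ratio of 2.28 (1.21 to 4.48), which was 1.02 when single cells were assigned by marker score. The progenitor markers themselves were at 3194 CPM in this class in Col1a1fspKO and at 5416 in WT, and their part in these ratios was not tested.

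In B cells-like cells 3 of 7 genes were above 1.5-fold, against 3.64% of genes tested. B2m was at a ratio of 1.33 (1.27 to 1.40) and H2-D1 at 1.25 (1.17 to 1.34), near the low end for both. H2-Q6, with 73 and 21 UMIs, had a ratio of 3.78 (2.30 to 6.47), and H2-Q7, with 156 and 88, of 1.93 (1.48 to 2.53). The other was H2-T23 at 1.55 (0.935 to 2.62), which was below 1.5-fold as a mean of single cells at 1.49, with a shared UMI minimum at 1.41 and after thinning at 1.27. Plasma cell markers were at 368 CPM in this class in Col1a1fspKO and at 105 in WT, and their part in these ratios was not tested. In the cluster led by Ms4a1, a gene of mature B cells, H2-K1 was at 804 and 777 CPM, a ratio of 1.03 (0.820 to 1.31). The cluster led by Vpreb1, a gene of B cell precursors, has only 14 and 9 cells. In it H2-K1 was at 1443 and 790 CPM, a ratio of 1.83 (1.14 to 2.99), and B2m was at 5096 and 2722. The larger cluster led by Myl4, with 126 and 136 cells, also has Vpreb1 among its leading genes. There H2-K1 had a ratio of 1.49 (1.33 to 1.67) and B2m of 1.30 (1.22 to 1.37). In the cluster led by 4930597A21Rik H2-K1 was at 1.49 (1.12 to 2.01).

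T and NK cells-like cells, 58 and 32, had ratios of 1.44 (1.29 to 1.61) for B2m, 1.39 (1.16 to 1.67) for H2-K1 and 1.37 (1.17 to 1.61) for H2-D1. Of 5 genes 2 were above 1.5-fold, H2-Q4 at 1.72 (0.938 to 3.33) and H2-Q7 at 1.76 (1.24 to 2.54), against 8.63% of genes tested. After thinning, these ratios were 1.27 and 1.29, below 1.5-fold. In the cells with a UMI of Cd3d, Cd3e or Cd3g, 44 and 27, the ratio of B2m was 1.49 and in the rest 1.33. Neutrophil markers were at 3747 CPM in this class in Col1a1fspKO and at 39138 in WT, 0.763% and 7.91% of their level in Neutrophils-like cells.

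H2-T23 differed from the other genes in its spread over classes. It was at a ratio of 0.952 (0.666 to 1.36) in Mono/Macro-like cells, from 65 and 67 UMIs, and of 0.996 (0.431 to 2.43) in T and NK cells-like cells, from 17 and 10. After thinning these ratios were 1.06 and 2.39, so their direction changed with thinning. The 2.39 rests on few counts, since after thinning 10 of 58 and 3 of 32 T and NK cells-like cells had a UMI. Its intervals were above 1 in 2 of 8 classes with at least 10 UMIs, Neutrophils-like and Myeloid progenitors-like.

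The interval of chromosome 17 from H2-K1 to H2-T23, chr17:33996017-36032855, holds 70 other genes with at least 50 UMIs. Their median ratio was 0.986, with a range from 0.606 to 1.61, and 2 were above 1.5-fold and 1 lower by that factor. The 2 were Ltb, a lymphotoxin subunit, at 1.61 and Vars2, a mitochondrial tRNA synthetase, at 1.59.

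**Figure D4:**
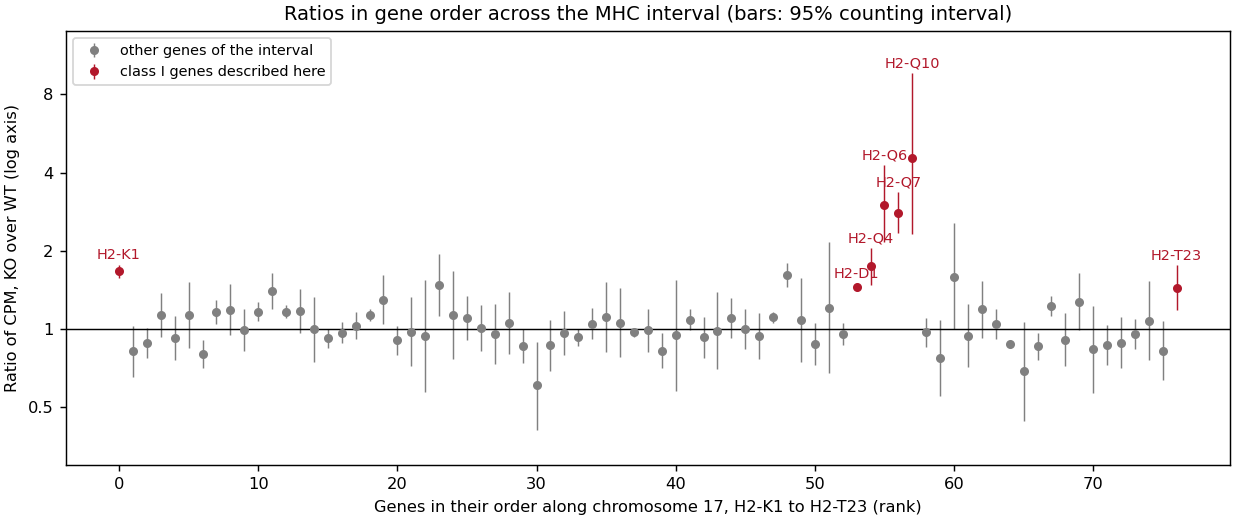
Ratio of CPM, Col1a1fspKO over WT, on a log axis for the genes from H2-K1 to H2-T23 in their order along chromosome 17, with 95% counting intervals, the class I genes described here in red and the 70 others in grey. The adjacent H2-D1, H2-Q4, H2-Q6, H2-Q7 and H2-Q10 run from 1.45 to 4.53, and the median of the others is 0.986.

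Other genes of the pathway came from lists of 5 kinds. Of the other class I genes, 2 had at least 50 UMIs: H2-T22 was at a ratio of 1.56 (1.38 to 1.76), and H2-M3 at 1.10 (0.849 to 1.43). H2-T24 had 7 and 8 UMIs. Of the class I-like genes Cd1d1, Fcgrt and Hfe, which had at least 50 UMIs, none was past 1.5-fold either way.

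The genes that supply and load peptides stayed closer to 1. None of the 13 was past 1.5-fold, and their median ratio was 1.14. Tap1, a subunit of the transporter that moves peptides into the endoplasmic reticulum, had the highest ratio of the list at 1.40 (1.195 to 1.64). The immunoproteasome subunits Psmb8 and Psmb9 were at 1.17 (1.10 to 1.23) and 1.17 (1.07 to 1.27). Calr, Canx and Pdia3, chaperones that fold heavy chains and other proteins, were at 0.993, 0.939 and 0.966.

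Of the 9 regulators, 3 were above 1.5-fold and none lower, against 3.0% and 2.93% of all genes tested. Nlrc5, the transactivator of class I genes, had 40 and 20 UMIs, a ratio of 1.99 (1.14 to 3.601). Irf1, an interferon-induced transcription factor, had 205 and 121, a ratio of 1.69 (1.34 to 2.13). Rfx5, which binds class I and class II promoters, had 49 and 32, a ratio of 1.53 (0.959 to 2.46), an interval that includes 1. Rfxap, a partner of Rfx5, was at 0.772 (0.639 to 0.933).

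Of the 9 genes with at least 50 UMIs in the list of receptors, 5 were above 1.5-fold and none lower, against the same 3.0% and 2.93%. Klrc1 and Klrd1, which encode NKG2A and CD94 and bind Qa-1, had ratios of 2.70 (1.87 to 3.96) and 1.66 (1.33 to 2.09). Klrc2, Klra7 and Cd8b1 had 2.29, 2.41 and 1.75. Klra3 was at 1.33 (0.861 to 2.07), and Klra1 was lower in Col1a1fspKO, at 0.754 (0.457 to 1.23) from 31 and 41 UMIs. T and NK cells-like cells were 4.43% of cells in Col1a1fspKO (3.38 to 5.69) and 2.74% in WT (1.88 to 3.84), and T and NK markers stood at 719 and 367 CPM over all cells, with 10 of the 13 listed. These receptors are made by such cells, and the part of that difference in their ratios was not tested. Pirb and Lilrb4a, receptors of myeloid cells, were at 1.09 and 1.1995.

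**Figure D5:**
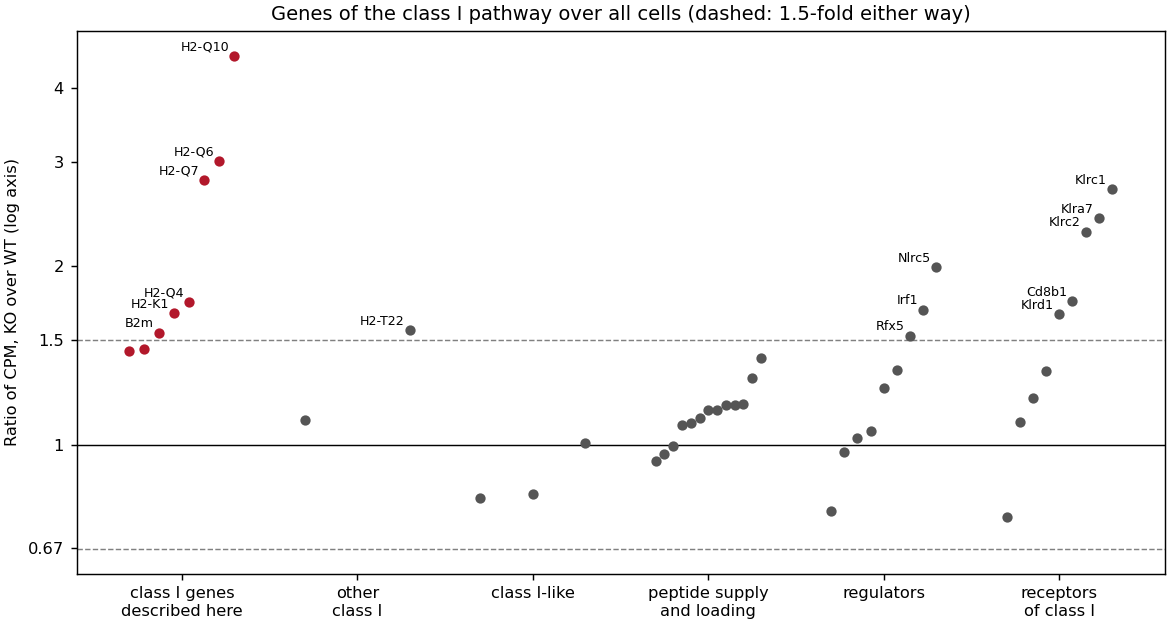
Ratio of CPM, Col1a1fspKO over WT, over all cells on a log axis for genes with at least 50 UMIs in 6 groups, each dot a gene and dashed lines at 1.5-fold either way. The 13 genes of peptide supply and loading lie between the lines, and 6 of the 8 class I genes described here and 5 of the 9 receptors lie above.

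Across profiles of single clusters in single libraries, the genes of the set were most like each other in part. Of the 6167 genes with at least 200 UMIs, the 3 most like each member were taken by Pearson r of log2(CPM + 10) over 28 profiles. These share 2 libraries and differ in cell number and depth, so r is only a description. H2-K1, H2-T22 and H2-D1 were nearest to B2m, at 0.871, 0.856 and 0.847. H2-Q4 and H2-Q7 were each other's nearest, at 0.921. Next came Son and Ptprcap for H2-Q4, at 0.920 and 0.903, and Son and Gimap1 for H2-Q7, both at 0.894. Nearest to H2-K1 were Ifi47, an interferon-induced GTPase gene, Thap3 and Lrp10, at 0.903, 0.889 and 0.887. Nearest to H2-D1 were Lbh and Btg1, at 0.876 and 0.868, ahead of H2-K1 at 0.859. For H2-T23 they were Ogt, Clec2d and Eif4a2, at 0.885, 0.860 and 0.856. H2-Q6 and H2-Q10 had too few UMIs to enter.

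Close relatives can share reads. Of all windows of the sequenced read length in the last 500 bases of the protein-coding GENCODE M21 transcripts, 18.8% of those of H2-Q6 also occurred in H2-D1, H2-Q1 or H2-Q7, and 1.06% and 0.531% of those of H2-T23 and H2-Q4 occurred in another gene. For B2m, H2-K1, H2-D1, H2-Q7 and H2-Q10 the share was 0%. H2-Q6 counts are therefore uncertain, and the sum of H2-Q6 and H2-Q7 had a ratio of 2.85 (2.43 to 3.34) over all cells.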

How the data were processed

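Values are raw UMI counts per gene and cell, which the authors deposited as 1 table per library. They were made with Cell Ranger, whose version is not given in the sources used here, on mm10, and the submitters' processing notes also name Seurat 3.5.3. A gene missing from a table was counted as 0. Every deposited cell had 200 to 7000 genes and at most 10% mitochondrial UMIs. Clusters came from Seurat 5.3.0 in R 4.3.3 on 1967 of 2000 variable genes, with 27 principal components and resolution 0.8. The 33 left out came from the H2 genes, Ly6 genes, B2m, the pathway lists with their regulators and receptors, and a few others. Counts were summed by class and library, and ratios of CPM used Python 3.11.15 and scipy 1.17.1. A library at 0 was set to 3 UMIs as a bound. Genes needed 50 UMIs over both libraries to be counted. The ratio function was tested on simulated data. Members, lists and thresholds were chosen with earlier results of these data known. The named genes were the 8 members, list genes past 1.5-fold or the most abundant, and the nearest 3 by r, with a few added after their values were seen: the neighbours Ltb and Vars2, some of the genes higher in every class, and list genes set beside these. A few genes are not reported here.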

Additional observations from a re-analysis of the deposited data

Results flagged for a closer look

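Among clusters with at least 10 UMIs, H2-Q4, H2-Q6 and H2-Q7 were each lower in a single cluster, as given above. Among classes with at least 10 UMIs, H2-T23 stood apart in that its direction differed between them. Its ratio of CPM, Col1a1fspKO over WT, was 0.530 in Erythrocytes-like cells (0.139 to 1.76, from 5 and 9 UMIs), 0.952 in Mono/Macro-like cells (0.666 to 1.36) and 0.996 in T and NK cells-like cells (0.431 to 2.43). In the other 5 classes with at least 10 UMIs it was above 1, at most 2.28 in Myeloid progenitors-like cells. With 1 library per genotype the difference between classes was not tested, and all 3 intervals include 1. The direction was not steady in 2 of these classes. After thinning to 2500 UMIs per cell the ratio was 1.06 in Mono/Macro-like and 2.39 in T and NK cells-like cells. The 2.39 comes from 10 and 3 cells with a UMI. As a mean of single cells the ratio was 1.11 in Mono/Macro-like cells. In T and NK cells-like cells it was also above 1 with 15 principal components, at 1.11, with all variable genes kept, at 1.08, and with cells assigned by marker score, at 1.01.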

How the results depend on the processing

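Every gene kept a ratio above 1 over all cells under all 8 alternatives, which were CPM without the 20 most abundant genes, the mean of single cells, cells thinned to 2500 UMIs, stricter cells, a shared UMI minimum, no called doublets, and an equal mix of classes or of clusters. The last 2 were added after the data were seen. B2m moved to 1.48 as a mean of single cells and to 1.47 after thinning, and H2-D1 to 1.38 with the cluster mix held equal. H2-Q10 was at 3.09 with that mix and 5.72 after thinning. At 2-fold in place of 1.5-fold, the other class I and pathway genes past the limit numbered 3 in place of 9. The count of gene and class pairs higher in Col1a1fspKO ranged from 46 of 49 to 48 of the 48 that had a value after thinning. Of 587 values for single genes and classes, 576 stayed within their counting interval, 11 moved beyond it, and none whose interval lay clear of 1 reversed. No paired analysis was possible because each genotype has 1 library. The libraries hold pooled mice, so genotype cannot be told apart from pool, mouse or library, and depth limits H2-Q6 and H2-Q10.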

Other observations

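The class II genes H2-Aa, H2-Ab1 and H2-Eb1, which lie in the same interval of chromosome 17, had levels near each other in the libraries. H2-Aa stood at 105 CPM in Col1a1fspKO and 109 in WT, a ratio of 0.969 (0.883 to 1.06). H2-Ab1 stood at 121 and 132 CPM, a ratio of 0.919 (0.845 to 1.001), and H2-Eb1 at 68.6 and 66.6, a ratio of 1.03 (0.917 to 1.16). These 3 genes, which encode the peptide-presenting chains of class II molecules, were chosen after their values were seen. Among other class II genes of the interval, H2-DMa was at 1.16 (1.04 to 1.29), H2-DMb2 at 1.19 (0.944 to 1.49) and H2-Oa at 1.13 (0.843 to 1.52). H2-DMb1 was at 0.989 and H2-Ob at 0.997.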
